A study of Mus musculus with 6 samples.

Results

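The lymphatic identity genes, 9 genes that define or mark lymphatic endothelium, were followed across 6 RNA-seq libraries of mouse endothelial cells (ECs): *Prox1*, *Nr2f2*, *Foxc2*, *Tbx1*, *Pdpn*, *Lyve1*, *Reln*, *Mmrn1* and *Gja4*. They were chosen by symbol, and all 9 were present among the 24421 genes of the count table. The skin libraries came from E15.5 embryos in which both alleles of *Dot1l*, the H3K79 methyltransferase, were floxed (Dot1l 2f/2f). Embryos without Tie2-Cre served as control (Cont skin BEC, labelled wild type), and embryos carrying Tie2-Cre, which is active in endothelium and also in blood cells, gave the conditional knockout (cKO skin BEC). RNA from 2 to 3 embryos was pooled into 1 library per genotype. The cultured cells were a yolk sac blood EC (BEC) line, CRL-2581, and embryonic dermal lymphatic ECs (LECs), C57-6064L. They received empty lentivirus (Cont) or a lentivirus that brings dCas9-VP64, a catalytically dead Cas9 joined to an activator, to the *Dot1l* promoter (OE), and cells of 2 to 3 flasks made 1 library per condition. Each condition thus had 1 library, no spread between replicates could be measured, and every difference below is a difference between 2 libraries.

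Lymphatic endothelium arises largely from embryonic veins, where the homeobox factor PROX1, acting with the venous nuclear receptor NR2F2 (COUP-TFII), switches cells from the blood to the lymphatic program. FOXC2 shapes the valves of collecting lymphatics, and TBX1 acts upstream of the VEGF-C receptor gene *Flt4* in lymphatic growth. On the surface, podoplanin (*Pdpn*) engages a platelet receptor and helps keep blood and lymph apart, and LYVE1 binds hyaluronan. LECs also release reelin (*Reln*) and multimerin 1 (*Mmrn1*), and connexin 37 (*Gja4*) forms gap junctions in lymphatic valves and arteries. None of these genes belongs to LECs alone: *Lyve1* is also read in some tissue macrophages, *Pdpn* in epidermis and stroma, *Mmrn1* in platelets and *Nr2f2* in veins and mesenchyme.

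In mm10, *Prox1* lies on chromosome 1 from 190118035 to 190170714, *Reln* on chromosome 5 from 21884454 to 22344702, *Mmrn1* on chromosome 6 from 60924976 to 60989378, *Foxc2* on chromosome 8 from 121116171 to 121118895 and *Tbx1* on chromosome 16 from 18580979 to 18590671. *Nr2f2* (70351944 to 70366735) and *Lyve1* (110850607 to 110863239) are on chromosome 7, and *Gja4* (127311421 to 127314039) and *Pdpn* (143267431 to 143299564) on chromosome 4. *Prox1*, *Nr2f2* and *Reln* have annotated antisense or opposite-strand genes, *Foxc2* overlaps the gene model Gm20388, and reads shared with these cannot be separated in counts per gene.

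The 250 bases before the transcription start are shown for 3 members that were at or near 0 in cultured cells (*Prox1*, *Reln* and *Pdpn*) and for 1 that was read in every library (*Nr2f2*). The sequences are those of RefSeq (GRCm38.p6, the assembly of mm10), 5′ to 3′ on the strand of the gene, at chr1:190170828-190171077, chr5:22344706-22344955, chr4:143299565-143299814 and chr7:70366747-70366996, all on the minus strand. RefSeq lists a further start for *Prox1*, and the more distal one is shown. Capitals mark matches, on either strand, to 1 of 6 short motifs. These were the ETS motif CCGGAAG, the GATA motif written AGATAA, the SOX motif spelled AACAAT, the nuclear receptor half-site AGGTCA, the forkhead motif read as GTAAACA and the TATA box, searched as TATAAA.
Prox1: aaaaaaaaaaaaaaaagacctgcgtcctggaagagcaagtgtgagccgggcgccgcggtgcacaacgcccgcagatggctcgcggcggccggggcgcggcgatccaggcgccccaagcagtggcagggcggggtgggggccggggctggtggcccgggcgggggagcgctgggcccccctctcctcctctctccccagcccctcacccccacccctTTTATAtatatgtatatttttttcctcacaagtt
Reln: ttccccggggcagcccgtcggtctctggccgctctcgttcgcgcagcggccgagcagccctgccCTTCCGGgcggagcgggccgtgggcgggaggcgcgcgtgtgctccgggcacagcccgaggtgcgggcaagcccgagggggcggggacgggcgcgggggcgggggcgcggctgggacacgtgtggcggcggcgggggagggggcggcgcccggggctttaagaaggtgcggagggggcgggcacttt
Pdpn: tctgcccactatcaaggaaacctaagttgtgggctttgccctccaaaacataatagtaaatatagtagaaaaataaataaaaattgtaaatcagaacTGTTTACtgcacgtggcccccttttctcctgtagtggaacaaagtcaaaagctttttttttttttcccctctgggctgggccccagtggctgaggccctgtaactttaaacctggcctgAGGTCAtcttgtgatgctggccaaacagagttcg
Nr2f2: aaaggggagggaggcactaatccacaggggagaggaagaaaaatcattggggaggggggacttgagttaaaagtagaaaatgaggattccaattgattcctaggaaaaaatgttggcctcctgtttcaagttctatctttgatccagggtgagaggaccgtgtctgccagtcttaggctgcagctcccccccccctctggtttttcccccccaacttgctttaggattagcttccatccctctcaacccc

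The *Reln* window had a GC content of 80.0% and a ratio of observed to expected CpG of 0.987, and the *Prox1* window 64.8% and 0.762. The windows of *Pdpn* (43.2% and 0.172) and *Nr2f2* (50.0% and 0.0640) were poor in CpG, against medians of 52.4% and 0.378 over 32526 promoter windows. Members with few or no reads in culture therefore had CpG-rich and CpG-poor windows alike. Among all windows, 6.95% held the ETS motif found in *Reln*, 12.3% the TATA motif found in *Prox1*, and 14.0% and 3.17% the nuclear receptor and forkhead motifs found in *Pdpn*. No motif of the 6 was in the *Nr2f2* window. The shares for AGATAA and AACAAT were 9.97% and 9.35%. A match describes letters only. A promoter entry was found for 7 of the 9 members, not for *Lyve1* and *Foxc2*.

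Depth ranged from 8863349 reads (Cont skin BEC) to 31032461 reads (OE dermal LEC). Counts of 3 reads or fewer were treated as being at the floor. In counts per 1000000 reads (CPM) that floor stood at 0.338 in the shallowest library and at 0.0967 in the deepest. *Dot1l* itself had 762 reads in Cont and 944 in cKO skin BECs (log2 ratio -0.07, 95% counting interval -0.21 to 0.07), so its count does not tell these libraries apart, and the second is called the library labelled cKO. Reads over the floxed exons cannot be picked out of a count for the whole gene. The paper reports that RT-qPCR of *Dot1l*, normalized to *Gapdh* and without a replicate, bore out the knockout. In the cultured cells *Dot1l* was 2.78-fold higher in OE-BECs and 2.30-fold higher in OE-LECs. All 12 pan-endothelial genes, among them *Pecam1* and *Cdh5*, were read above the floor in each of the 6 libraries.

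Apart from *Lyve1*, which was highest in the LEC libraries, the lymphatic genes were not highest in the libraries labelled LEC. The skin BECs had been collected as cells negative for F4/80, CD45 and LYVE1, and a figure caption of the paper adds that they were CD31-positive. Yet all 9 members were read above the floor in both skin libraries, *Lyve1* itself with 9105 and 19959 reads. The genes of the other excluded antigens were read there too, *Adgre1* (F4/80) with 1719 and 3411 reads and *Ptprc* (CD45) with 1206 and 2340. In the cultured cells labelled LEC, in contrast, 6 of the 9 members, *Prox1* among them, were at the floor in both libraries. The lymphatic chemokine gene *Ccl21a* had no read in any of the 6 libraries, skin included, so its count does not tell them apart. Levels below are therefore those of the libraries as labelled and not of purified cell types. In such bulk RNA, fewer cells of a type and less RNA per cell cannot be told apart.

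**Figure D1:**
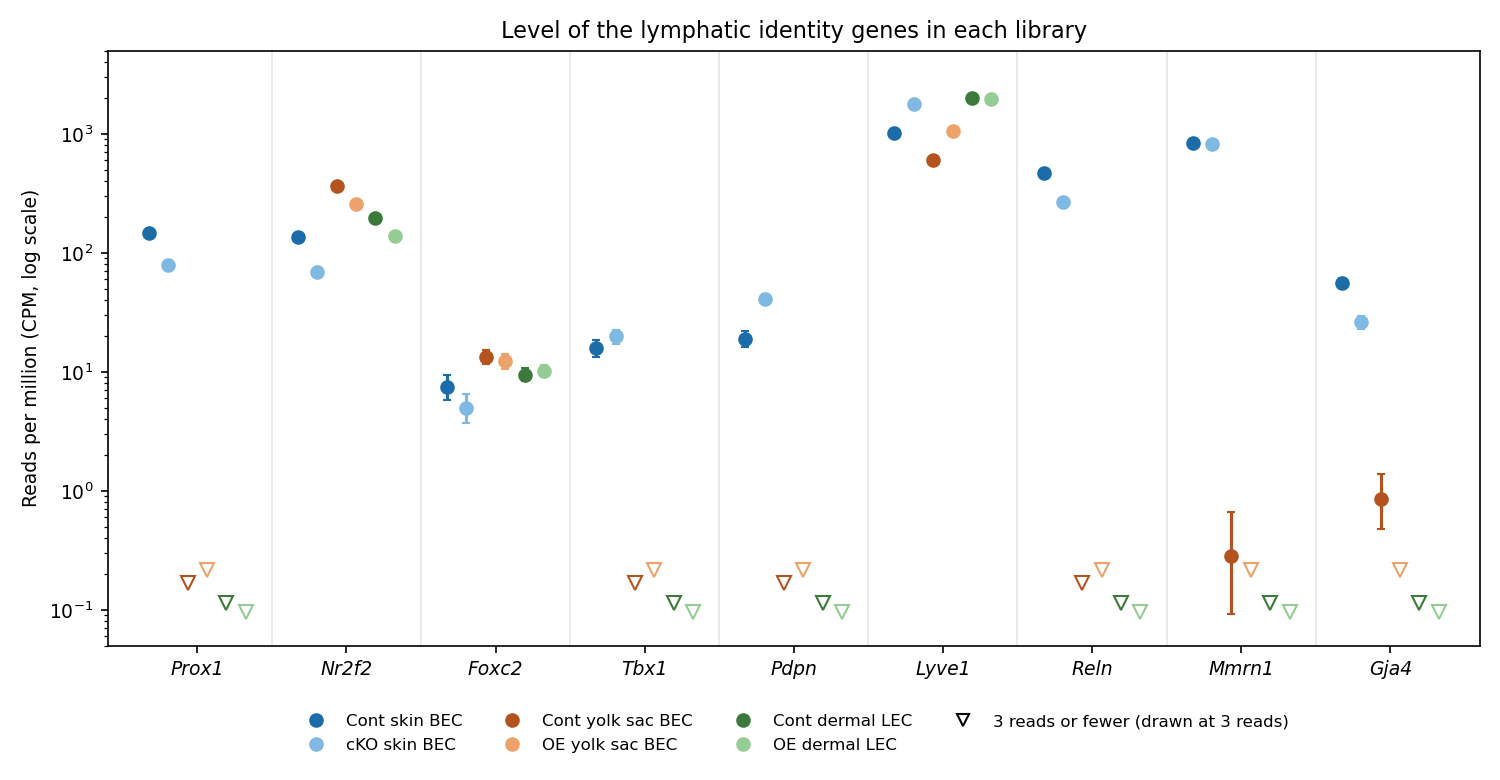
Level of each lymphatic identity gene (x axis) in CPM (y axis, log scale) in each of the 6 libraries. Points are single libraries with exact 95% binomial intervals, and open triangles stand at 3 reads for libraries with 3 reads or fewer. *Prox1*, *Tbx1*, *Pdpn*, *Reln*, *Mmrn1* and *Gja4* sit high only in the skin libraries, while *Nr2f2*, *Foxc2* and *Lyve1* are read in all 6.

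By level the members fell into 2 sets, 6 read in skin and almost absent in culture and 3 read throughout. The share of all genes with such a split was not computed, and the split was not particular to lymphatic genes. No keratinocyte or fibroblast marker gene was at the floor in skin. In Cont dermal LECs 10 of 12 keratinocyte and 9 of 12 fibroblast genes were. No pan-endothelial gene was at the floor in any library. *Prox1* had 1304 reads in Cont skin BECs (147 CPM), 883 in the library labelled cKO (79.7 CPM), and no read in any of the 4 cultured libraries. By the lower limit of the exact counting interval of the ratio of CPM, *Prox1* was at least 704-fold higher in Cont skin BECs than in Cont yolk sac BECs and at least 1040-fold higher than in Cont dermal LECs. *Tbx1* had 140 and 220 reads in skin (15.8 and 19.8 CPM) and likewise none in culture. For both transcription factors the skin and cultured libraries did not overlap.

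*Pdpn* had 167 and 457 reads in skin, 18.8 and 41.2 CPM, and a single read in the 4 cultured libraries together, in OE-BECs. *Reln* had 4125 and 2942 reads in skin, 465 and 265 CPM, and in culture 2 reads in Cont yolk sac BECs, 3 in OE-BECs and 1 in each LEC library. *Mmrn1* was among the 100 genes with most reads in each skin library, with 7399 and 9109 reads (835 and 822 CPM), and in culture 5 in Cont yolk sac BECs, 1 in OE-LECs and none in the others. *Gja4* had 495 and 289 reads in skin, 55.8 and 26.1 CPM, and 15 reads in Cont yolk sac BECs (0.848 CPM, interval 0.475 to 1.40), none in OE-BECs and 1 in each LEC library. Against Cont yolk sac BECs, Cont skin BECs were 65.8-fold higher for *Gja4* (interval 39.5 to 119). For these surface, secreted and junction genes, the LEC libraries were at the floor throughout.

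*Lyve1* was the most abundant member in every library on the scale of CPM per kilobase of exon (RPKM), which allows genes of different length to be compared. It had 9105, 19959, 10680, 14786, 52184 and 60898 reads in Cont skin, cKO skin, Cont yolk sac, OE yolk sac, Cont dermal and OE dermal libraries. These are 1027, 1801, 604, 1061, 1998 and 1962 CPM. The order from high to low was Cont LEC, OE-LEC, the library labelled cKO, OE-BEC, Cont skin BEC and Cont yolk sac BEC. The intervals of OE-BECs (1044 to 1078 CPM) and Cont skin BECs (1006 to 1049) overlapped, as neighbours in this order, while those of Cont LECs (1981 to 2015) and OE-LECs (1947 to 1978) lay close but apart. By number of reads *Lyve1* ranked 17 among all genes in Cont LECs.

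*Nr2f2* was second to *Lyve1* per length in all 4 cultured libraries, at 42.3 (Cont) and 29.8 RPKM (OE) in BECs and at 23.0 (Cont) and 16.1 RPKM (OE) in LECs. Its level in CPM was highest in Cont yolk sac BECs (6446 reads, 364 CPM), followed by OE-BECs (3579 reads, 257 CPM), Cont LECs (5172 reads, 198 CPM), OE-LECs (4322 reads, 139 CPM), Cont skin BECs (1202 reads, 136 CPM) and the library labelled cKO (762 reads, 68.7 CPM). Of these neighbours only OE-LECs (135 to 143 CPM) and Cont skin BECs (128 to 144) had overlapping intervals. *Foxc2* was low throughout, from 55 reads (4.96 CPM) in the library labelled cKO to 315 reads (10.2 CPM) in OE-LECs and 236 reads (13.3 CPM) in Cont yolk sac BECs. The counts in Cont skin BECs, OE-BECs and Cont LECs were 66, 171 and 248 reads. Its intervals overlapped between every pair of neighbours in the order of levels.

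Per length, the order in Cont skin BECs was *Lyve1* (352 RPKM), *Mmrn1* (142), *Gja4* (33.1), *Reln* (19.6), *Prox1* (17.5), *Nr2f2* (15.7), *Pdpn* (10.4), *Tbx1* (4.49) and *Foxc2* (2.73). In the library labelled cKO, *Pdpn* stood in the third place with 22.7 RPKM, and the order of the others was kept. The long exons of *Reln*, 23738 bases in all, place it lower per length than by reads.

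To ask how the lymphatic genes differ between embryos labelled *Dot1l* knockout and control, the skin libraries were compared after median of ratios normalization. None of the 9 members reached the 3-fold rule of the study, which calls a gene at 5 or more normalized counts in the higher library and more than 3 times the lower one. All 9 could have been called, and over all 15993 genes that could be, 5.17% were called higher and 2.41% lower. Beyond counting error, 6 members were lower and 2 higher in the library labelled cKO, with intervals that exclude 0, where 25.4% of the 15554 genes with 10 or more reads were lower and 23.1% higher by the same measure. All 9 had at least 100 reads in the pair, and among the 11523 genes with that many the interval excluded 0 on the lower side for 31.0% and on the higher side for 24.9%. The median log2 ratio of the 9 (1 added to each normalized count) was -0.63, against 0.00 over the genes with 10 or more reads.

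The 6 lower members ranged from 2.23-fold to 1.06-fold lower. *Gja4* was 2.23-fold lower (log2 ratio -1.15, interval -1.37 to -0.94), *Nr2f2* 2.05-fold (-1.04, -1.17 to -0.90), *Prox1* 1.92-fold (-0.94, -1.07 to -0.82) and *Reln* 1.82-fold (-0.87, -0.93 to -0.80). *Foxc2*, with 66 and 55 reads, was 1.56-fold lower with a wide interval (-0.64, -1.18 to -0.10), but not when scaled to pan-endothelial reads. *Mmrn1* was only 1.06-fold lower (-0.08, -0.12 to -0.03) and was higher when scaled to pan-endothelial reads. In the other direction, *Pdpn* was 2.11-fold higher (1.07, 0.82 to 1.34) and *Lyve1* 1.69-fold higher (0.75, 0.72 to 0.79). For *Tbx1* the interval included 0 (0.27, -0.04 to 0.59). Scaled to pan-endothelial reads its log2 ratio was 0.94, beyond its counting error.

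**Figure D2:**
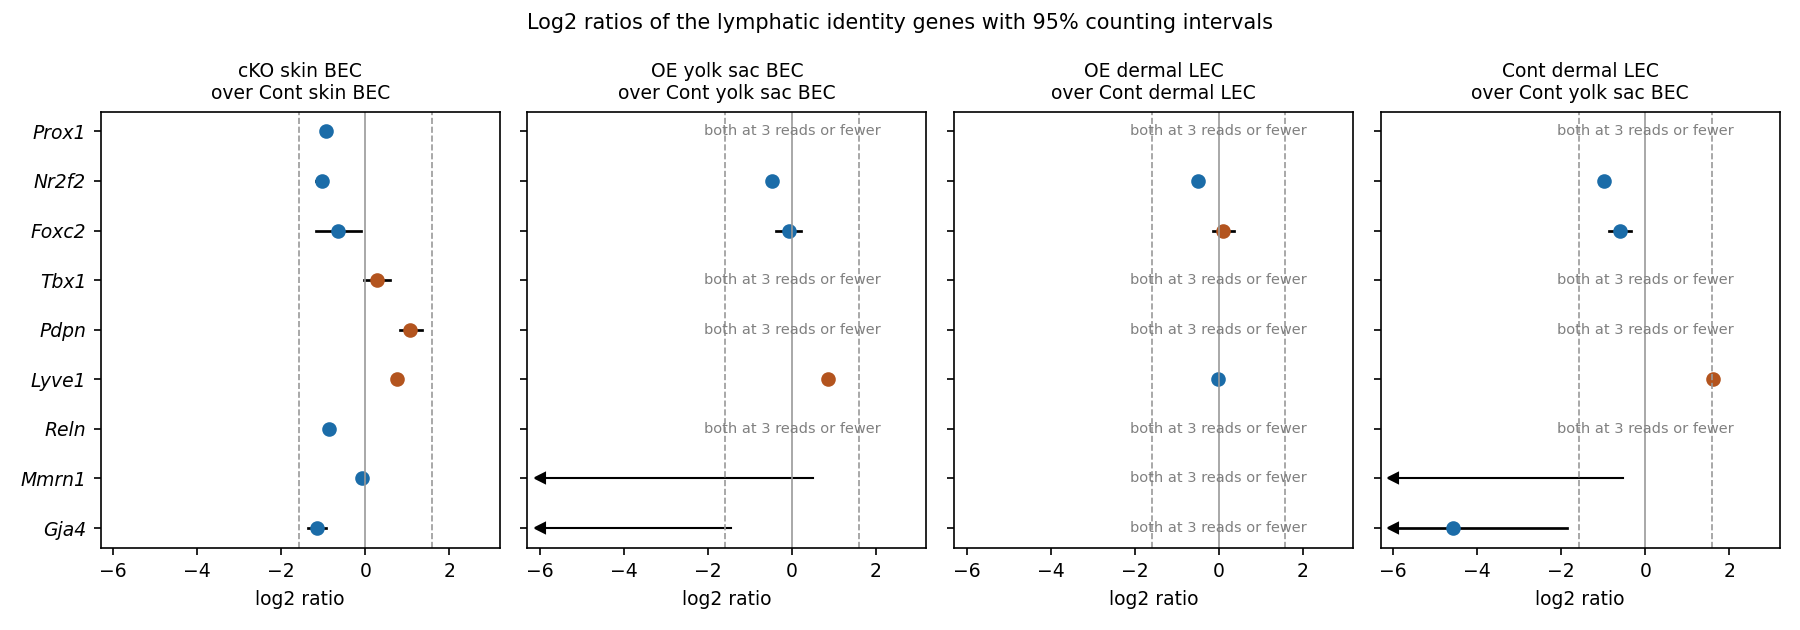
Log2 ratios of normalized counts (x axis) for each lymphatic identity gene in the 3 comparisons of changed with control cells and between the cultured control libraries. Points are ratios, blue below 0 and orange above, black lines are exact 95% counting intervals, arrows mark intervals that run past the axis, and dashed lines mark a 3-fold ratio. In skin, *Gja4*, *Nr2f2*, *Prox1* and *Reln* lie between -1.15 and -0.87, and *Pdpn* and *Lyve1* at 1.07 and 0.75.

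Marker genes of other cell types also differed between the skin libraries. Of 12 pan-endothelial genes 10 were lower and 2 higher in the library labelled cKO beyond counting error (median log2 ratio -0.60), and their summed level was 6415 CPM in Cont and 4207 CPM in that library. Of 12 blood endothelial genes 11 were lower and none higher (-0.78), from 3631 to 2267 CPM in sum. Macrophage genes were higher for 11 of 12 (0.65), from 3979 to 6117 CPM, and *Mrc1*, the mannose receptor gene, alone had 22493 and 43350 reads. Keratinocyte genes were higher for 7 of 12 and lower for 2 (284 and 445 CPM, median 0.59), fibroblast genes lower for 9 of 12 and higher for 2 (3057 and 2259 CPM, -0.48), and pericyte genes lower for 7 of 8 (858 and 677 CPM, -0.41). Summed levels were small for skeletal muscle genes (42.6 and 27.2 CPM, 3 of 8 lower), neural and Schwann genes (63.6 and 77.6 CPM, 4 of 7 higher and 1 lower) and mesothelial genes (10.9 and 26.4 CPM, 1 of 3 higher), counting those with 10 or more reads. Platelet and megakaryocyte genes, a list for the other known source of *Mmrn1*, gave 198 and 321 CPM, most of it *Pf4*. Of these genes 2 of 7 were higher and 1 lower, and their median log2 ratio was -0.05. No defining macrophage, keratinocyte, fibroblast or pericyte marker was at the floor in either skin library. The part of these cells in the ratios of *Lyve1*, *Pdpn*, *Nr2f2* and the other members was not tested.

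Ratios within a library give each member beside these cells. Per 1000 reads of the 12 pan-endothelial genes, *Prox1* had 22.9 (Cont) and 18.9 (cKO label), *Reln* 72.6 and 63.1, *Nr2f2* 21.1 and 16.3, and *Gja4* 8.71 and 6.20. These 4 remained lower on this scale, by less than against all genes. *Mmrn1* had 130 and 195 reads and so turned direction. *Foxc2* had 1.16 and 1.18, a log2 ratio of 0.02 that lay within its counting error. *Tbx1* had 2.46 and 4.72, *Pdpn* 2.94 and 9.80, and *Lyve1* 160 and 428. Per 1000 reads of the 12 macrophage genes, *Lyve1* had 258 and 294 reads and *Pdpn* 4.73 and 6.74. The other members were lower in the library labelled cKO on this scale. *Prox1* had 37.0 and 13.0, *Reln* 117 and 43.4, *Nr2f2* 34.1 and 11.2, and *Gja4* 14.0 and 4.26. *Mmrn1* had 210 and 134, *Foxc2* 1.87 and 0.811, and *Tbx1* 3.97 and 3.24, the last a difference within its counting error.

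**Figure D3:**
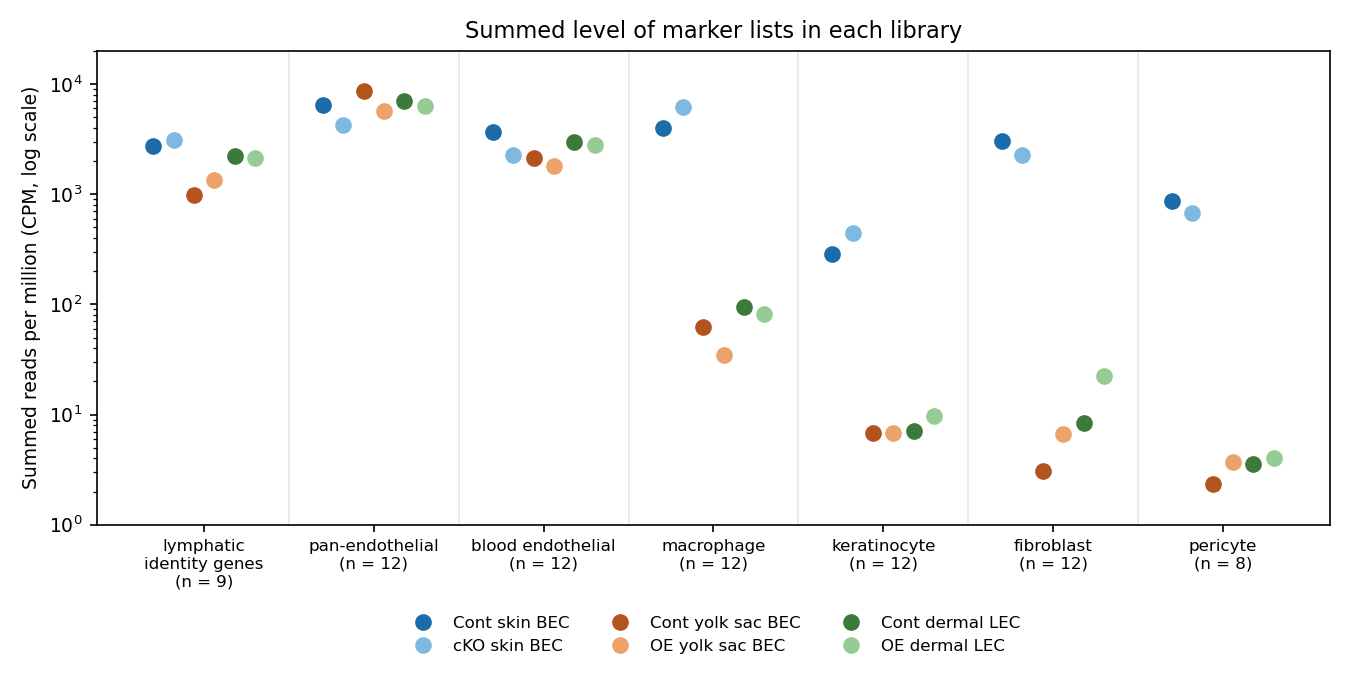
Summed CPM (y axis, log scale) of the lymphatic identity genes and of marker lists (x axis, with the number of genes) in each library. The pan-endothelial sum is between 4207 and 8712 CPM in all 6 libraries, while macrophage, keratinocyte, fibroblast and pericyte genes are high only in the skin libraries.

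Other genes of the lymphatic pathway were mixed in the same comparison. Of 10 lymphatic transcription factor genes 9 had 10 or more reads, and 4 were higher and 5 lower beyond counting error, with none called by the 3-fold rule and a median log2 ratio of -0.23. *Foxc1*, a relative of *Foxc2*, had 224 and 104 reads (log2 ratio -1.48) and *Maf* 3281 and 5746 (0.43). Of 7 genes of the VEGF-C axis 3 were lower and 1 higher (median 0.04). The receptor gene *Flt4* had 2607 and 2628 reads (-0.37, interval -0.45 to -0.29), its co-receptor gene *Nrp2* 7605 and 6120 (-0.69), and the ligand gene *Vegfc* 229 and 228 (-0.38). Among 9 other lymphatic-enriched genes with 10 or more reads 2 were higher and 3 lower (median -0.14), and the rule called *Nts*, encoding neurotensin, higher (66 and 346 reads, 4.03-fold) and *Fxyd6*, a regulator of the sodium pump, lower (116 and 35 reads, 4.31-fold). Of 10 valve and flow genes 5 were lower and 1, *Fn1*, higher (median -0.12), and the claudin gene *Cldn11* was called lower (124 and 33 reads, 4.88-fold).

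**Figure D4:**
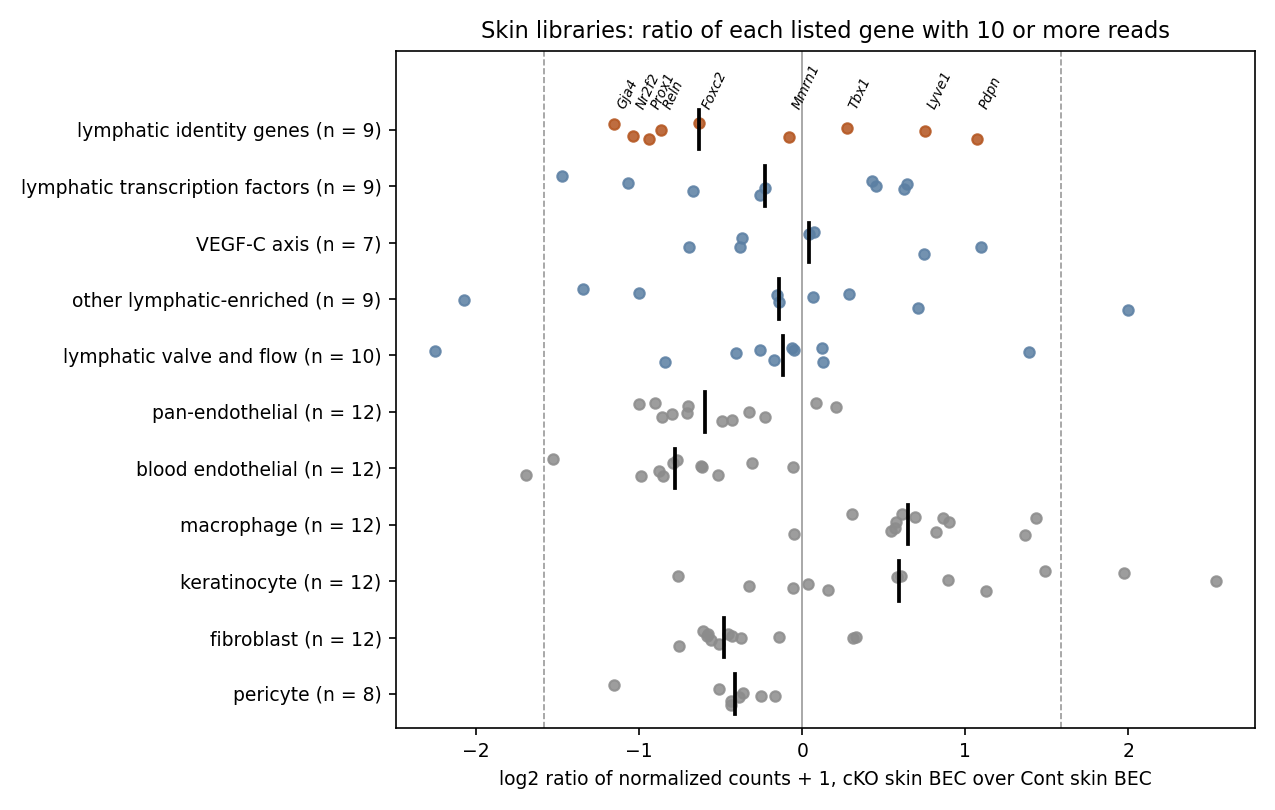
Log2 ratio of normalized counts plus 1 (x axis), library labelled cKO over Cont skin BEC, for each gene with 10 or more reads in the lists named on the y axis. Each point is a gene, black bars are list medians and dashed lines mark a 3-fold ratio. The lymphatic identity genes spread from -1.15 (*Gja4*) to 1.07 (*Pdpn*), with pan-endothelial genes mostly below 0 and macrophage genes mostly above.

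After *Dot1l* overexpression in yolk sac BECs, *Lyve1* was higher and *Nr2f2* lower. *Lyve1* had 10680 reads in Cont and 14786 in OE-BECs, a 1.81-fold difference (log2 ratio 0.85, interval 0.82 to 0.89). *Nr2f2* was 1.38-fold lower (-0.47, -0.53 to -0.41) but not when scaled to pan-endothelial reads, and *Foxc2*, with 236 and 171 reads, did not differ beyond counting error after median of ratios normalization (-0.08, -0.37 to 0.21). The rule for OE samples, with a minimum of 3 normalized counts, could have called 6 members and called none higher and 2 lower, *Gja4* and *Mmrn1*. Over all 14792 genes that could be called, 8.02% were called higher and 5.27% lower. By the counting interval, 1 member was higher and 2 lower of the 4 with 10 or more reads, where 27.4% of genes with 10 or more reads were higher and 30.0% lower, and 29.4% and 34.1% of genes with 100 or more. *Gja4* fell from 15 reads to 0 and was at least 2.75-fold lower. *Mmrn1* had 5 reads and 0, and its interval reached 0.51 on the log2 scale, so a difference was not detectable at this depth. *Prox1*, *Tbx1*, *Pdpn* and *Reln* were at the floor in both libraries.

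Pan-endothelial genes were lower in OE-BECs for 9 of 12 and higher for 1, from 8712 to 5674 CPM in sum. Per 1000 of their reads *Lyve1* had 69.3 in Cont and 187 in OE-BECs, *Nr2f2* 41.8 and 45.3, and *Foxc2* 1.53 and 2.16, so the directions for *Nr2f2* and *Foxc2* turned on that scale and that for *Lyve1* was kept. The log2 ratio of *Foxc2* was then 0.50, a shift beyond its counting error. Macrophage, keratinocyte, fibroblast and pericyte genes each summed to at most 94.0 CPM in the 4 cultured libraries. The sum of the mesothelial list, 2.77 and 68.3 CPM in Cont and OE-BECs, was nearly all *Msln*, with 4 and 3 of its 5 genes at the floor. The part of these shifts in the results was not tested. The ribosomal RNA gene *Rn45s* took 5.91% and 10.9% of the reads, and without it the log2 ratio of *Lyve1* by total counts was 0.89. In the pathway lists *Sox18*, which activates *Prox1* in embryonic veins, was 4.46-fold lower (1436 and 247 reads), the integrin gene *Itga9* 3.62-fold lower (500 and 106 reads) and *Clec14a* 3.40-fold lower (4499 and 1016 reads). In the transcription factor list 5 of 8 genes with 10 or more reads were lower and 1 higher (median -0.27), and in the lymphatic-enriched list 5 of 6 were lower (-1.26), against a median of -0.01 over all genes. The medians of the pan-endothelial (-0.29) and blood endothelial lists (-0.46) were also below 0. How far the lymphatic-enriched list is specific to LECs was not tested. *Ccbe1*, needed for VEGF-C processing, was 4.84-fold higher (356 and 1322 reads). The rule also called the planar polarity gene *Celsr1* higher (4 and 26 reads) and the connexin gene *Gja5* lower (38 and 6 reads). Of the VEGF-C genes 2 of 3 were higher and 1 lower (median 0.09), and of the valve genes 3 of 8 were higher and 5 lower (-0.40).

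In OE-LECs neither *Lyve1* nor *Foxc2* differed from the control beyond counting error after median of ratios normalization. *Lyve1* had 52184 and 60898 reads, a log2 ratio of -0.01 (interval -0.02 to 0.01), and *Foxc2* had 248 and 315 reads (0.11, -0.13 to 0.36). *Nr2f2* was 1.40-fold lower (-0.49, -0.55 to -0.43). Only these 3 members could have been called, and none was, while 2.77% of 13883 genes were called higher and 2.09% lower. By the counting interval none was higher and 1, *Nr2f2*, lower, where 24.2% of genes with 10 or more reads were higher and 21.4% lower, and 27.0% and 23.9% of those with 100 or more. Per 1000 reads of the pan-endothelial genes, *Lyve1* had 286 in Cont and 312 in OE-LECs, a log2 ratio of 0.12 that exceeds its counting error. Pan-endothelial genes were lower for 8 of 12 and higher for 3, and *Msln* had 105 and 464 CPM. Their part in the results was not tested. *Sox18* was also lower here (1281 and 477 reads, 3.15-fold). *Figf*, the gene of VEGF-D, had 7 and 32 reads (3.90-fold), and *Fgl2* had 0 and 6. In the pathway lists, 3 of 8 transcription factor genes were higher and 2 lower (median 0.20), 4 of 4 VEGF-C genes higher (0.43), 1 of 5 lymphatic-enriched genes higher and 4 lower (-0.33), and 3 of 7 valve genes higher and 3 lower (0.04), against a median of 0.00.

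The overexpression responses of the 2 lines were set side by side for the 3 members with reads in both. *Nr2f2* differed between lines by 0.02 on the log2 scale (OE-BECs minus OE-LECs, counting interval -0.06 to 0.11) and *Foxc2* by -0.20 (-0.57 to 0.18). *Lyve1* differed by 0.86 (0.82 to 0.90). Scaled to pan-endothelial reads, the log2 ratios of *Lyve1* were 1.43 in OE-BECs and 0.12 in OE-LECs, and those of *Foxc2* 0.50 and 0.25. With 1 library per condition, these intervals carry no spread between cultures.

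The control libraries of the lines, which also served in the overexpression comparisons, were compared with each other. *Lyve1* was 3.08-fold higher in LECs than in BECs (log2 ratio 1.62, interval 1.59 to 1.65), just past the rule. *Nr2f2* was 1.98-fold lower (-0.98, -1.04 to -0.93) and *Foxc2* 1.51-fold lower (-0.59, -0.86 to -0.33) in LECs. Scaled to pan-endothelial reads, the log2 ratio was 2.05 for *Lyve1*, -0.56 for *Nr2f2* and -0.17 for *Foxc2*, the last within its counting error. *Gja4*, with 15 reads in BECs and 1 in LECs, was called lower (log2 ratio -4.57, interval -9.97 to -1.87), and so was *Mmrn1*, with 5 reads and 0 (at least 1.45-fold). Thus 1 of the 5 members that could be called was higher and 2 were lower, where 4.12% of 14419 genes were called higher and 13.1% lower. By the counting interval 1 was higher and 3 were lower of 4 members with 10 or more reads, where 40.0% of genes with as many were higher and 36.4% lower, and 46.3% and 35.3% of those with 100 or more. Transcription factor genes were lower for 7 of 8 (median -0.83), lymphatic-enriched genes for 4 of 6 (-1.90), valve genes for 6 of 8 (-0.66) and VEGF-C genes for 2 of 3 (-0.08), against a median of 0.03. Pan-endothelial genes were lower for 7 of 12 and higher for 3 (-0.31). Of the pathway genes, *Ccbe1* was 3.99-fold higher in LECs (356 and 2253 reads), as was *Celsr1* (4 and 48 reads, 7.56-fold), and *Clec14a* (4499 and 1311 reads, 5.45-fold), *Rassf9* (652 and 162, 6.39-fold), *Gja5* (38 and 3) and *Nts* (18 and 2) were lower. Cell line, tissue of origin and cell type cannot be told apart here.

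Across all 6 libraries, the genes with the most similar profiles were found by the distance between log2(CPM + 0.5) values, each gene centred on its own mean, over 13265 genes with 100 or more reads. The profile nearest to *Prox1* was that of *Sox11*, a SOX transcription factor, with 155 and 78.3 CPM in skin and no read in culture (distance 0.08), followed by *Ebf3* (0.27) and *Chst15* (0.34). For *Tbx1* they were *Xylt1* (0.06), *Cd180* (0.13) and *Prdm16* (0.16), and for *Pdpn* *Adap2* (0.16), *Arhgef10l* (0.28) and *Aoah* (0.28). *Reln* was nearest to *Postn* (0.40), which encodes the matrix protein periostin, *Nid2* (0.49) and *Col6a3* (0.52). Larger distances separated *Gja4* from *Mcf2l* (0.67), *Igfbp7* (0.68) and *Serpine2* (0.71), and *Mmrn1* from *Cd36* (0.71), the mast cell chymase gene *Cma1* (0.75) and *Col3a1* (0.86). The genes nearest to *Lyve1* were *E230013L22Rik* (0.38), *Pfdn6* (0.40) and *Faap20* (0.42), at far lower levels: *Pfdn6* had 17.5 CPM in Cont skin BECs. *Nr2f2* was nearest to *Fam107a* (0.39), *Chn1os3* (0.40) and *Fam124b* (0.45), and *Foxc2* to *Yaf2*, *1700052K11Rik* (both 0.23) and *Trim6* (0.25). The 6 libraries are 3 pairs from 3 sources.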

How the data were processed

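RNA-seq counts of 6 libraries were used. The authors made the libraries with the ScriptSeq kit, trimmed adapters with skewer, aligned the reads to mm10 with STAR, counted them per gene with VERSE and deposited raw counts (whole numbers, with no normalization) for 24421 gene symbols. The gene annotation behind the counts and the use of strand are not given in the sources used here. Groups follow the sample titles.

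CPM and RPKM were computed from total counts and from union exon lengths of the GENCODE M21 annotation. For each comparison, size factors for the pair of libraries came from DESeq2 1.42.0 (median of ratios), run in R 4.3.3. Genes were called by the study's rule (3-fold, minimum 5 for cKO and 3 for OE). Log2 ratios have exact (Clopper-Pearson) 95% intervals on the reads of both libraries, and levels have exact binomial ones. Reads are not independent molecules, so intervals and floors cover counting error only. Where a library had no read, the fold is the smaller of the fold against 3 reads and the nearer interval limit. Medians of lists used a pseudocount of 1. No p-value is given, since no condition has a replicate. The 3-fold calls and the counting intervals were tested on data simulated with counting error only, and the other steps were not tested in this way. Other steps ran in Python 3.11.15 (pandas 2.3.3, numpy 2.4.6 and scipy 1.17.1).

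The members, lists and tests were chosen with earlier results of these data known. *Thy1* is in the lymphatic-enriched and fibroblast lists, and *Des* in the pericyte and muscle lists. *Vegfd* was matched as *Figf*, and *Muc16* had no row in the table used here. Named genes are the members, pathway genes past 3-fold with an interval that excludes 0 (up to 4 a list), and the 3 nearest profiles of each member. Outside this rule, and chosen after their values were seen, *Foxc1*, *Maf*, *Flt4*, *Nrp2*, *Vegfc*, *Fn1*, *Ccl21a*, *Adgre1*, *Ptprc*, *Mrc1*, *Pf4*, *Msln*, *Pecam1*, *Cdh5* and *Rn45s* were named. Alternatives were size factors from all 6 libraries, TMM factors of edgeR 4.0.16, total counts with and without *Rn45s*, other minimums, a 2-fold limit, a pseudocount of 1, the interval as a further condition, and edgeR's exact test at a biological coefficient of variation (BCV) set by assumption to 0.2 or 0.4. Scaling to pan-endothelial reads was added after the data were examined.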

Additional observations from a re-analysis of the deposited data

Results flagged for a closer look

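The log2 ratios after overexpression had opposite signs in the 2 lines for *Lyve1* and *Foxc2*, each from 1 library per condition, and the difference between the lines was not tested against any spread between cultures. For *Lyve1* the ratio was 0.85 in OE-BECs and -0.01 in OE-LECs, a difference of 0.86, and the interval in OE-LECs includes 0. For *Foxc2* it was -0.08 in OE-BECs and 0.11 in OE-LECs, a difference of -0.20, and both intervals include 0. Scaled to pan-endothelial reads, neither gene had opposite signs: *Lyve1* was 1.43 and 0.12 and *Foxc2* 0.50 and 0.25 in OE-BECs and OE-LECs.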

How the results depend on the processing

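Members called in the library labelled cKO numbered 0 in each direction under all other settings, but 1 was called up (*Pdpn*) and 2 down (*Nr2f2* and *Gja4*) with a 2-fold limit, and 1 up (*Pdpn*) when counts were scaled to pan-endothelial reads. The 2 members called down in OE-BECs became 0 with a minimum of 20 and with the edgeR exact test at an assumed BCV of 0.4, and 1 (*Gja4*) with a minimum of 5, with the interval as a further condition and at an assumed BCV of 0.2. With no minimum, 1 member was called up in OE-BECs (*Pdpn*) and 1 in OE-LECs (*Mmrn1*), each on a single read, and those called lower in Cont LECs than in Cont BECs became 3, adding *Reln* on 2 reads and 1. Between the control lines, the 1 member called higher in LECs (*Lyve1*) became 0 at an assumed BCV of 0.4, and the 2 called lower became 0 with a minimum of 20 and at an assumed BCV of 0.4, and 1 at 0.2. Of 114 log2 ratios of members under other scalings or a pseudocount of 1, 3 with a counting interval that excluded 0 reversed, all when scaled to pan-endothelial reads: *Foxc2* (0.023) and *Mmrn1* (0.59) in skin and *Nr2f2* in OE-BECs (0.11). The reversed ratio of *Foxc2* in skin lay within its counting error. With intervals that included 0, *Foxc2* in OE-BECs (from -0.08 to 0.50) and *Lyve1* in OE-LECs (from -0.01 to 0.12) also changed sign under that scaling. A further 24 moved by more than 0.5 of the width of the counting interval, these among them, and 87 did not. With a pseudocount of 1 on CPM, *Lyve1* and *Gja4* shared 1 of their 3 nearest genes with those given, *Tbx1*, *Pdpn* and *Reln* shared 2, and the other 4 members all 3. No paired analysis was possible because each condition has 1 library. Few reads limit *Foxc2* in skin and the ratios between cultured libraries of every member at the floor there, though the cultured libraries were the deeper ones.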
